A study of Mus musculus with 12 samples.

Results

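The genes of the calcium/calmodulin-dependent kinase family were followed through the H4K12ac peaks of sorted hippocampal neuronal nuclei. The 10 genes were taken by name out of 55413 annotated mouse genes and comprised the CaMKII subunits *Camk2a*, *Camk2b*, *Camk2d* and *Camk2g*, the kinases *Camk1*, *Camk1d* and *Camk4*, the upstream kinases *Camkk1* and *Camkk2*, and the kinase-like gene *Camkv*. Peaks came from 5 *Tip60* cKO mice, which carry the CaMKCreERT2 driver and floxed *Tip60* on both alleles, and from 5 control littermates with the floxed alleles but without the driver. All mice were injected with tamoxifen at 8 to 10 weeks of age, and the nuclei were taken from the whole hippocampus at day 10 after the last injection. The labels describe male C57BL/6J mice of 3 months, whereas the methods give either sex and a C57BL/6N background. The driver, Tg(Camk2a-Cre/ERT2)2/Gsc, deletes *Tip60* in excitatory forebrain neurons, whereas the sort took neuronal nuclei without regard to the neuron type. It is named for *Camk2a*, one of the genes examined here, and only the *Tip60* cKO mice carry it. How much *Camk2a* sequence the transgene holds is not given in the sources used here.

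Calcium that enters a neuron through synaptic receptors and channels binds calmodulin, and calcium-loaded calmodulin switches on these kinases. CaMKII is a large holoenzyme built from subunits of the genes *Camk2a* to *Camk2g*. In the forebrain it is dominated by the alpha and beta subunits, is concentrated at excitatory synapses and is needed for long-term potentiation and for memory. CaMKK1 and CaMKK2 phosphorylate and thereby fully activate CaMKI and CaMKIV, and CaMKIV acts in the nucleus, where it phosphorylates CREB. The product of *Camkv* resembles these kinases but is regarded as a pseudokinase. H4K12ac is an acetylation of histone H4 found at active promoters, and TIP60, the product of *Kat5*, is one of the acetyltransferases that can place it.

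The lists of the *Tip60* cKO mice held 64245 to 135494 peaks from 22864189 to 37077725 tags, and those of the control mice 93575 to 136409 peaks from 27418740 to 37923809 tags. The shortest list belonged to *Tip60* cKO mouse 5, the library with the fewest tags. In all lists a peak means that the pileup of fragments passed a q-value threshold of 0.1 over the background that MACS took from the pooled input of the same genotype, so where no peak is listed the pileup missed this threshold at the depth of the library, and the mark need not be absent. Of 7 neuronal marker genes, 5 (*Rbfox3*, *Snap25*, *Syt1*, *Slc17a7* and *Neurod2*) had a peak within 2 kb of the TSS in all 10 lists, whereas *Gad1* had none and *Gad2*, like *Gad1* a marker of inhibitory neurons, had one in a single list. Of 11 glial and endothelial markers, 8 had a TSS peak in no list, and *Mbp* had one in all 10. *Gfap* had one in 4 *Tip60* cKO and 5 control lists, and *Cldn5* in 1 *Tip60* cKO list. The part of these markers in the comparisons below was not tested. In bulk samples of nuclei, fewer nuclei with the mark and less of the mark per nucleus cannot be told apart.

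Promoter sequences show what kind of DNA these peaks lie on. RefSeq windows (GRCm38.p6) were available for 7 of the 10 genes, in 8 windows, and the 250 bases before the start were examined. The windows printed here are that of *Camk2b*, whose promoter carried the strongest peaks of the family, that of *Camk2d*, where the only peak shared by all lists in that gene was found, and that of *Camkk1*, which had the largest difference in TSS coverage between the genotypes. Capitals mark the GC box (GGGCGG, or CCGCCC on the other strand) and the half-site of the cAMP response element (TGACG or CGTCA). *Camk2b*, chr11:6065749-6065998, minus strand, *Camk2d*, chr3:126596701-126596950, plus strand, and *Camkk1*, chr11:73018738-73018987, plus strand, read 5′ to 3′ as follows.
Camk2b: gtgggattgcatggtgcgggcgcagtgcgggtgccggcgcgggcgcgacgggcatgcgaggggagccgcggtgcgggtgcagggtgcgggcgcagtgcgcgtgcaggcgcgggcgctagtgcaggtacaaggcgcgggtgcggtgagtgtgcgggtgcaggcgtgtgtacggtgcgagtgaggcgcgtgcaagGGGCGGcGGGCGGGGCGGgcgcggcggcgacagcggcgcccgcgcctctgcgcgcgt
Camk2d: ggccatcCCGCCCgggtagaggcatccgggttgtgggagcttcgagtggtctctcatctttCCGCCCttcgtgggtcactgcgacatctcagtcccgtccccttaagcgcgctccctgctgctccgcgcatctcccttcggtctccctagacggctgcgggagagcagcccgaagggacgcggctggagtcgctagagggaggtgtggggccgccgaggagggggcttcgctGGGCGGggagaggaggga
Camkk1: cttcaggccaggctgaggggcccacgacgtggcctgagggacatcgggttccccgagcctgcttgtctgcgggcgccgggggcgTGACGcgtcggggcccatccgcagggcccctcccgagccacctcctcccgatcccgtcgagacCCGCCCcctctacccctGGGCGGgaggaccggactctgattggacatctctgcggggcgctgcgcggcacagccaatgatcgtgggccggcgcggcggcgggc

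The *Camk2b* window held 44 CG dinucleotides, more than 99.5% of the 32851 promoter windows in RefSeq, where the median was 6. The *Camk2d* window held 23 and that of *Camkk1* 29. GC boxes, searched on both strands, numbered 3 in *Camk2b*, where a pair of them share a base, 3 in *Camk2d* and 2 in *Camkk1*, and at least 1 was present in 32.7% of all windows. The half-site occurred once in *Camkk1*, was present in 17.8% of all windows and was found in no other of these 3. The full element TGACGTCA, which contains the half-site and is found in 1.55% of all windows, was in none of the 8 windows. A peak overlapped the 250 bases of *Camk2b* and of *Camk2d* in all 10 lists, and likewise those of *Camkk2*, *Camk1*, *Camkv* and the upstream window of *Camk1d*. At *Camkk1* it did so in 5 of 5 control and in 3 of 5 *Tip60* cKO lists, the exceptions being mice 1 and 5.

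At the TSS, 9 of the 10 genes had a peak in all control lists. A rank score from 0 to 100 was given to each TSS window, by ranking the highest fold enrichment in it against the TSS windows of the other genes of that library, and the share of the window under peaks was measured in percent. *Camk2b* stood at 98.6 ± 1.59 (SD, n = 5), higher than 98.7% of the 21672 genes tested. *Camkv* followed at 96.8 ± 2.96, *Camkk1* at 93.0 ± 1.94, *Camk1d* at 91.6 ± 3.18 and *Camkk2* at 88.9 ± 2.27. *Camk2g* was at 84.8 ± 3.91, *Camk2d* at 82.0 ± 5.94, *Camk2a* at 81.8 ± 4.72 and *Camk1* at 81.5 ± 8.23, so these last 4 lay near the median of all genes, 80.7. In this order only the steps from *Camkv* to *Camkk1* and from *Camkk2* to *Camk2g* exceeded the larger SD of the pair. By coverage *Camk2a* stood much higher, with 70.9 ± 20.8% of its window in peaks in control mice, more than 98.6% of the genes, and only *Camk2b* (88.4 ± 13.4%) and *Camkv* (78.1 ± 14.3%) exceeded it. The *Camk2a* TSS thus lay in broad acetylation of moderate height.

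*Camk4* (chromosome 18, 32934931 to 33191228, plus strand) was the exception. None of the 10 lists had a peak within 2 kb of its annotated 5′ end, and it was therefore not tested there. The gene has 4 annotated start sites, of which the furthest lies 4227 bp downstream, and a peak 4.05 kb from the 5′ end was present in all 10 lists, 173 bp from an annotated start. *Tip60* cKO mice showed a fold enrichment of 7.42 ± 1.87 there, and control mice of 6.81 ± 1.65. When the highest of all annotated start sites was taken, the rank score of *Camk4* was 94.0 ± 7.61 and 88.8 ± 8.80, respectively.

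Limma was used to compare the genotypes over all genes with a peak in at least 2 lists. *Camk2a* is described without a p-value in this and the following comparisons, since it was singled out for a raised input background that is computed from fold enrichment and pileup and that enters the calling of its peaks. None of the other 8 tested members passed a Benjamini-Hochberg adjusted p-value of 0.05 in TSS rank score, nor had any an unadjusted p below 0.05, as 11.8% of all genes had. Of all 21672 genes, 0.157% were called lower and 0.0784% higher. *Camk2a* scored 87.0, 92.5, 89.7, 88.1 and 88.1 in *Tip60* cKO mice 1 to 5 and 86.6, 84.7, 77.6, 75.9 and 84.1 in control mice 1 to 5. Every *Tip60* cKO mouse was above every control mouse, an order that 1.93% of all genes had and from which nothing is read here for the reason given above. The opposite order, found for 1.62% of all genes, occurred at no family member. The difference was 7.31 ± 2.54 (SE). Within lane 7 it was 6.78 and within lane 8 it was 8.10. Among the other members 5 were lower and 3 higher, with adjusted p-values by limma from 0.560 to 0.997. In *Tip60* cKO mice *Camkv* was at 93.4 ± 2.96 (SD, n = 5), *Camk1d* at 90.8 ± 4.003, *Camkk2* at 88.4 ± 5.78, *Camk2d* at 86.7 ± 4.34 and *Camk1* at 86.5 ± 5.60. *Camk2g* had the largest difference, with 63.4 ± 35.8 beside 84.8 ± 3.91 in controls. Much of its size came from *Tip60* cKO mouse 5, where no peak passed the threshold at this TSS. Within lane 7, which does not hold that mouse, the *Camk2g* difference was −6.94. In the other 4 *Tip60* cKO mice *Camk2g* scored 74.5 to 87.6, against 79.5 to 89.4 in the controls.

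Over all genes TSS coverage was lower in 81.0% of those tested, with a median difference of −4.01 percentage points, and 1.53% were called lower and 0.0369% higher. None of the 8 tested members other than *Camk2a* was called. Of all 9, *Camk2a* included, 7 had a lower mean, with a family median of −7.67 points, and 3 of these, *Camkk1*, *Camkk2* and *Camk2b*, had an unadjusted p below 0.05, as did 23.2% of all genes. In controls these 9 had 26.6 to 88.4% of the window in peaks, beside a median of 20.2% over all genes. The medians in points thus start from unlike levels and are not read as a larger fall in the family.

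*Camkk1*, one of the kinases upstream of CaMKI and CaMKIV, had 55.2, 26.97, 52.2, 25.97 and 36.5% of its window in peaks in *Tip60* cKO mice 1 to 5 and 71.7, 63.6, 49.0, 51.8 and 69.3% in control mice 1 to 5. The ranges overlapped, since *Tip60* cKO mice 1 and 3 reached the lowest controls. The difference of −21.7 ± 6.63 points (SE) had an adjusted p of 0.0974 by limma, and it was −16.6 points within lane 7 and −29.3 within lane 8. Leaving out *Tip60* cKO mouse 1 brought it past the threshold, at −25.7 points with an adjusted p of 0.0437 by limma. In that fit limma called 1388 of 21672 genes, compared with 339 with all libraries. With any other library left out, the adjusted p by limma was 0.0713 to 0.205. In the rank score *Camkk1* was at 87.2 ± 8.29 and 93.0 ± 1.94. Its paralog *Camkk2*, which in neurons also acts on the energy sensor AMPK, was covered to 34.3, 36.5, 27.1, 32.1 and 23.8% in *Tip60* cKO mice 1 to 5, whereas the control mice had 48.0, 40.3, 37.0, 34.8 and 45.7%. Only control mouse 4 lay below a *Tip60* cKO mouse, and the difference was −10.4 ± 3.38 points (SE, adjusted p of 0.112 by limma).

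At *Camk2b*, the beta subunit that anchors CaMKII to actin, coverage was 87.4, 68.6, 84.3, 66.0 and 55.5% in *Tip60* cKO mice. Control mice 1, 2, 3 and 5 had 97.4, 95.7, 93.8 and 90.3%, all above every *Tip60* cKO mouse, whereas control mouse 4, at 64.9%, lay among them. This gave a difference of −16.0 ± 7.27 points (SE, adjusted p of 0.212 by limma). In height, the *Camk2b* peak remained among the strongest of all genes, with rank scores of 99.5 ± 0.404 in *Tip60* cKO mice beside 98.6 ± 1.59 in controls. Of the remaining members, *Camk2g* had a coverage of 27.4 ± 16.8% (SD, n = 5) in *Tip60* cKO mice beside 38.2 ± 8.95% in controls, a difference of −10.8 points in which *Tip60* cKO mouse 5 without a peak counts as 0. *Camk1d* had 44.8 ± 6.22% and 52.5 ± 6.85%, *Camk1* 27.1 ± 9.13% and 33.1 ± 7.30%, and *Camkv* 73.4 ± 15.9% and 78.1 ± 14.3%. At *Camk2d* coverage was 27.5 ± 6.76% beside 26.6 ± 2.54%, and the ranges of the genotypes overlapped at all 5 of these genes. *Camk2a* was the other member with a higher mean in *Tip60* cKO mice. Its TSS window was covered to 100% in *Tip60* cKO mice 1 and 3, to 86.3% and 74.8% in mice 2 and 4 and to 43.0% in mouse 5, compared with 38.5 to 89.7% in the controls (difference 9.87 ± 11.9 points, SE). In coverage the ranges of the genotypes overlapped at *Camk2a*, which is likewise only described. No family member had every *Tip60* cKO mouse below every control, as 5.23% of all genes had, nor the reverse, as 0.157% had.

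**Figure D1:**
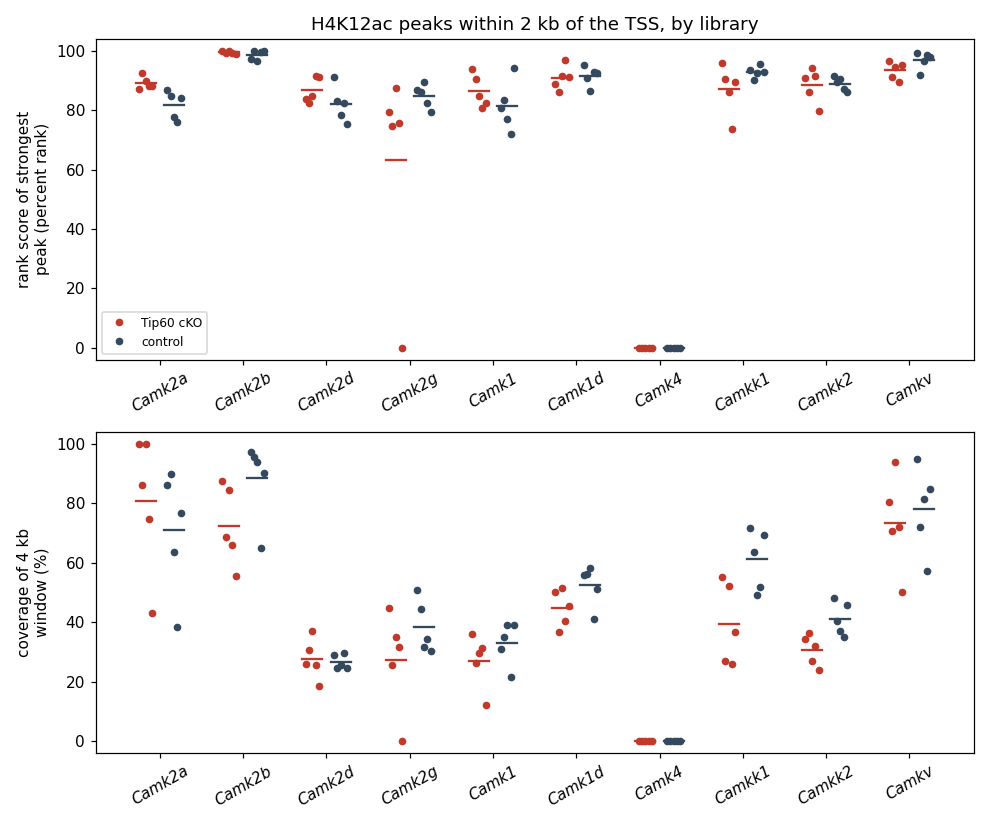
H4K12ac peaks within 2 kb of the TSS of the 10 genes. The upper plot shows the rank score (0 to 100, 0 means no peak) and the lower plot the percent of the 4 kb window in peaks, with 1 point per library in the order of mice 1 to 5 and a line at the mean. *Camk2a* is the gene whose *Tip60* cKO rank scores (87.0 to 92.5) all lie above the controls (75.9 to 86.6), and *Camk4* has no peak in this window.

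Gene bodies, from 2 kb after the TSS to the 3′ end, were covered to different degrees among the CaMKII subunits. *Camk2b* and *Camk2a* differed by less than the larger SD of the pair. In control mice peaks covered 34.2 ± 9.83% of the *Camk2b* body and 27.3 ± 8.54% of that of *Camk2a*, which is more than in 96.4% and 94.1% of the 12823 genes tested, where the median was 2.84%. *Camkv* (24.1 ± 10.3%) and *Camkk1* (21.3 ± 6.56%) came next, followed by *Camk2g* (14.1 ± 2.64%), *Camk1* (12.2 ± 8.20%), *Camkk2* (8.06 ± 2.69%) and *Camk1d* (7.39 ± 1.85%). *Camk4* was covered to 2.09 ± 0.392%. *Camk2d* stood at the other end, with 0.115 ± 0.127% of a gene of 250 kb (chromosome 3, 126596302 to 126846326, plus strand) and 0 to 3 body peaks per list, compared with 34 to 73 in *Camk2b*, which is 96.7 kb long. Of the steps in this order, those from *Camkk1* to *Camk2g*, from *Camk1d* to *Camk4* and from *Camk4* to *Camk2d* exceeded the larger SD of the pair. The single *Camk2d* region present in all 10 lists spanned 1366 bp at the promoter printed above (chromosome 3, 126596400 to 126597765), and none of its 8 regions further than 2 kb from a start site was present in all lists.

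*Camk2a* was the member whose body coverage was higher in *Tip60* cKO mice. It was 54.6, 42.7, 62.5, 40.6 and 32.4% in *Tip60* cKO mice 1 to 5 and 34.1, 35.6, 22.2, 15.3 and 29.4% in control mice 1 to 5. *Tip60* cKO mouse 5 lay below control mice 1 and 2, and the other 4 were above all controls. The difference was 19.3 ± 6.22 points (SE), and it was 22.6 points within lane 7 and 14.2 within lane 8. The number of body peaks was no higher, at 35 ± 6.52 against 35.4 ± 7.20, so the peaks were longer. None of the other 9 members was called by limma, nor had any an unadjusted p below 0.05, which 15.7% of all genes had. They had lower means, with differences of −0.0142 points at *Camk2d*, −0.276 at *Camk4*, −0.568 at *Camk2b*, −0.740 at *Camk1d*, −1.60 at *Camkk2*, −2.77 at *Camk1*, −3.43 at *Camk2g*, −3.58 at *Camkk1* and −3.81 at *Camkv*, while 74.2% of all genes were lower with a median of −0.528 points. Some of these directions turned under the alternatives given below. With the same number of peaks, *Camk2b*, *Camk2d*, *Camk2g* and *Camk4* had higher means, as had *Camk1d*, *Camk2b* and *Camk2d* within lane 7. Over all genes 0.351% were called lower and 0% higher, and the genotypes were fully separated below the controls in 3.96% and above them in 0.0468%, which happened at no family member.

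**Figure D2:**
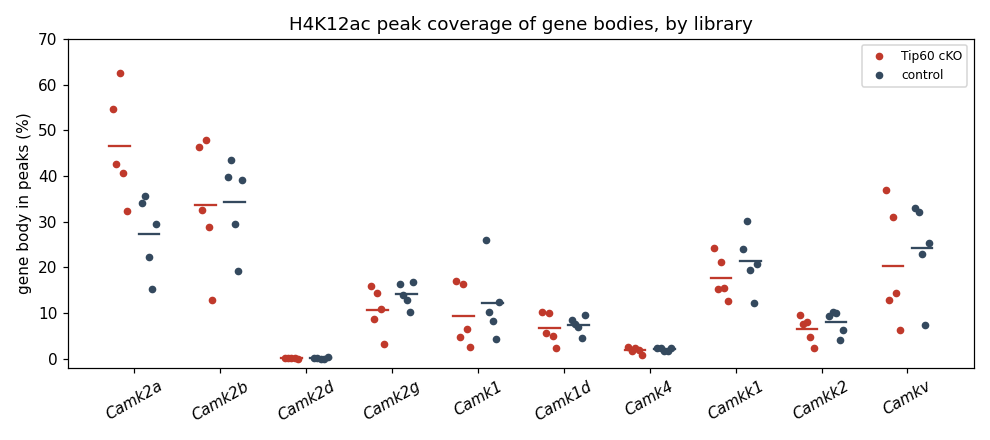
Percent of the gene body in H4K12ac peaks for the 10 genes, with 1 point per library in the order of mice 1 to 5 and a line at the mean of each genotype. *Camk2a* lies higher in *Tip60* cKO (32.4 to 62.5%) than in control mice (15.3 to 35.6%) with an overlap, and *Camk2d* lies close to 0 in all libraries.

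Peaks of the 10 lists were merged to find recurring regions. The family held 42 regions with a peak in every list, of which 12 were in *Camk2b* and 9 in *Camk1d*. Those of *Camk2b* reached from the promoter to an exon 94.1 kb downstream, near the 3′ end of the gene. In *Camk1d* (chromosome 2, 5293457 to 5714515, minus strand), which encodes a CaMKI isoform and is with 421 kb the longest member, 7 of the 9 lay more than 2 kb from any annotated start. All 7 were intronic, between 70.5 and 333 kb from the TSS. The widest was 4229 bp long (chromosome 2, 5610614 to 5614842), with a fold enrichment of 5.25 in *Tip60* cKO and 4.63 in control lists on average. No region of any member had a peak in all lists of one genotype and in none of the other.

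For these regions, fold enrichment was divided by the median of the TSS peaks of the same library and put on a log2 scale. It was higher in *Tip60* cKO mice in 26 and lower in 16 of the 42 regions, and over the 23749 regions of the genome with a peak in all lists the median difference was 0.01. In 5 regions of the family every *Tip60* cKO mouse was above every control, as in 2.65% of all such regions, and in 1 below, as in 1.84%. Of the 5 regions, 3 were in introns of *Camk2a*, whose background enters these values, and nothing is read from that count. The region 21.9 kb from its TSS (chromosome 18, 60940760 to 60949338) had relative values of 0.25, 0.20, 0.54, 0.19 and 0.35 in *Tip60* cKO mice 1 to 5 and of −0.22, −0.19, −0.45, −0.33 and −0.30 in control mice 1 to 5. The other two *Camk2a* regions, 27.9 and 52.2 kb from the TSS, differed by 0.53 and 0.33. Not all of the gene moved this way. The regions 9.54 and 38.5 kb from the TSS differed by −0.11 and −0.01, and at the first of these, whose merged peaks extend over the TSS, the values of the genotypes overlapped (0.04 to 0.35 for *Tip60* cKO, 0.04 to 0.59 for controls). The remaining 2 of the 5 were the region 94.1 kb into *Camk2b* (0.10 ± 0.13 in *Tip60* cKO, −0.40 ± 0.16 in control mice) and the one 11.5 kb into *Camkv* (0.02 ± 0.10 and −0.44 ± 0.23). The region that was lower lay 2.19 kb into *Camk1* (chromosome 6, 113341315 to 113342111), at −0.87 ± 0.25 in *Tip60* cKO and −0.11 ± 0.40 in control mice. These single regions were described and not tested.

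*Camk2a* was then set against the other CaMKII genes within each mouse. The strongest peak anywhere in the gene was expressed relative to the median TSS peak of the library, in log2, once by its fragment pileup and once by its fold enrichment over the input-derived background. The pileup of *Camk2a* was 75, 64, 77, 64 and 43 fragments in *Tip60* cKO mice 1 to 5 and 39, 36, 30, 29 and 38 in control mice 1 to 5. Pileup is 1 of the values from which the background of *Camk2a* was computed, so the order of the mice is not read as a result. Relative to the library, *Tip60* cKO mice were at 1.55 ± 0.12 and controls at 0.40 ± 0.12, a 2.23-fold difference. The genotypes lay closer at the paralogs. *Camk2b* was at 0.91 ± 0.19 and 0.93 ± 0.10, *Camk2d* at 0.03 ± 0.16 and −0.19 ± 0.28, and *Camk2g*, which is more broadly expressed, at 0.19 ± 0.19 and 0.40 ± 0.29. *Camk2a* minus the mean of its 3 paralogs came to 1.18 ± 0.12 for *Tip60* cKO mice and to 0.02 ± 0.14 for controls (difference 1.16). This is given as a description without a test. The difference was 1.32 within lane 7 and 0.92 within lane 8.

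In fold enrichment the difference at *Camk2a* was smaller. Its strongest peak was at 0.32, 0.32, 0.54, 0.43 and 0.35 in *Tip60* cKO mice 1 to 5. In control mice 1 to 5 it was at 0.25, 0.10, −0.24, −0.11 and 0.25, and the mean difference was 1.27-fold. The background that singled out *Camk2a* enters these values, so nothing is read from the order of the mice. *Camk2a* minus its paralogs came to −0.03 ± 0.08 for *Tip60* cKO mice and to −0.37 ± 0.20 for controls, a difference of 0.34, likewise given without a test. Control mouse 5, at −0.02, was within the range of the *Tip60* cKO mice, −0.13 to 0.06, and the other 4 controls were below it. With the strongest peak within 2 kb of the TSS in place of the gene, the difference was 0.24, where the paralog mean of *Tip60* cKO mouse 5 rests on *Camk2b* and *Camk2d*. One of the *Camk2g* peaks counted in the whole-gene values lies at the 3′ end of the gene and has its summit outside it. Among those values *Camk2g* was highest in control mouse 1, at 0.88, beside 0.10 to 0.39 in the other controls. Against *Camk2b* and *Camk2d* alone, an alternative chosen after seeing the data, the difference was 0.26.

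**Figure D3:**
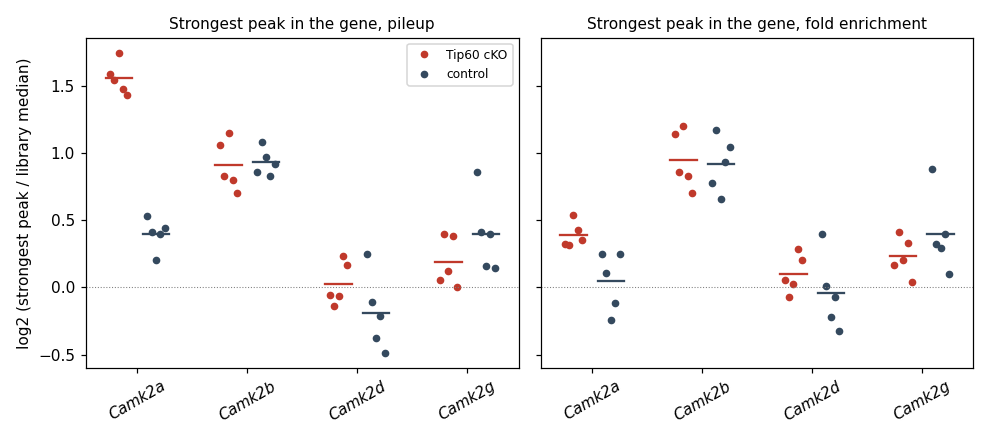
Strongest H4K12ac peak in each CaMKII gene, as log2 of its value relative to the median TSS peak of the same library, for pileup on the left and fold enrichment on the right, with 1 point per mouse and a line at the mean. The *Camk2a* pileup is 1.43 to 1.74 in *Tip60* cKO mice and 0.21 to 0.53 in controls, and the difference is smaller in fold enrichment (0.32 to 0.54 against −0.24 to 0.25).

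The local background that links these values was recovered from pileup and fold enrichment and is given as a multiple of the genome-wide background of the library. At the peaks of *Camk2a* (chromosome 18, 60925618 to 60988152, plus strand) it was 2.65, 2.60, 2.54, 2.63 and 2.71 in the lists of *Tip60* cKO mice 1 to 5 and 1.37, 1.35, 1.33, 1.32 and 1.35 in those of control mice 1 to 5. All lists of a genotype were called against 1 pooled input, so the narrow spread is not that of 5 inputs and the difference was not tested. The ratio of the genotypes was 1.96, which was above that of 99.98% of the 19140 genes with peaks in at least 3 lists of each genotype. A ratio above 1.5 was found in 0.199% of these genes and, in the family, only at *Camk2a*. The other 9 members had ratios from 0.851 at *Camk2g* to 1.01 at *Camk1*, whereas the median over all genes was 0.966. *Camk1* varied more between lists, with 1.74 in *Tip60* cKO mouse 5 and 1.002 to 1.10 in the other *Tip60* cKO mice.

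**Figure D4:**
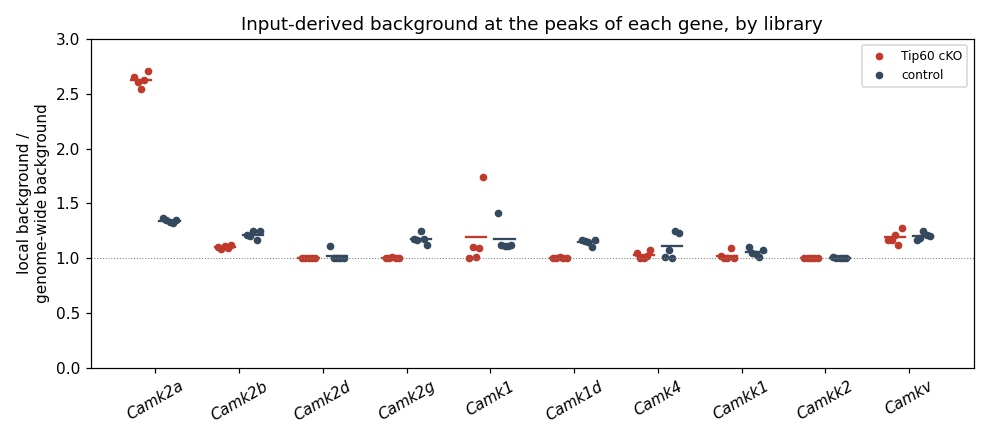
Input-derived local background at the peaks of each gene, as a multiple of the genome-wide background of the library, with 1 point per peak list and a line at the mean. *Camk2a* lies at 2.54 to 2.71 in *Tip60* cKO and at 1.32 to 1.37 in control lists, and the other genes lie between 1 and 1.28 in both genotypes apart from single *Camk1* lists.

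The raised background extended beyond the gene. In bins of 10 kb around the *Camk2a* TSS, it was 1.76 to 2.28 times higher in *Tip60* cKO than in control lists in 10 consecutive bins, from 40 kb before to 60 kb after the TSS. From 60 to 80 kb the ratios were 1.40 and 1.45, and in the other bins with a value, up to 200 kb on either side, they lay between 0.709 and 1.17. Of 15 annotated genes with a TSS within 200 kb, 11 had peaks in at least 3 lists of each genotype, and 3 of them had a ratio above 1.5. These were *Camk2a*, *Arsi*, a sulfatase gene 13.8 kb upstream (ratio 2.22), and the microRNA gene *Mir7220*, which lies inside *Camk2a* (ratio 2.18). The TSS of *Mir7220* is 28.3 kb from that of *Camk2a*, so its values come from peaks that are also counted for *Camk2a*. *Slc6a7*, a proline transporter gene 88.6 kb downstream, had a ratio of 1.23, and the remaining genes, among them *Tcof1* upstream and *Pdgfrb* downstream, had ratios of 0.841 to 1.21.

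The TSS peaks of these genes were also ranked by pileup in place of fold enrichment. *Arsi* scored 99.99 ± 0.00772 in *Tip60* cKO and 96.5 ± 3.60 in control mice by pileup, and 98.5 ± 0.968 and 96.6 ± 3.36 by fold enrichment. *Camk2a* scored 99.97 ± 0.0211 and 89.9 ± 5.59 by pileup, and *Mir7220* 99.95 ± 0.0280 and 78.7 ± 0.782. By fold enrichment *Mir7220* scored 89.6 ± 5.22 in *Tip60* cKO and 76.6 ± 2.08 in control mice, and *Camk2a* 89.1 ± 2.14 and 81.8 ± 4.72. Of the genes outside the stretch, *Slc6a7* scored 98.9 ± 1.22 and 93.6 ± 2.87 by pileup and 93.7 ± 6.16 and 94.7 ± 2.32 by fold enrichment, and *Tcof1* 76.1 ± 7.43 and 79.2 ± 7.26 by pileup. These scores were described and not tested. Since only the *Tip60* cKO mice carry the driver transgene named for *Camk2a*, the transgene and the deletion of *Tip60* cannot be told apart at this locus.

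**Figure D5:**
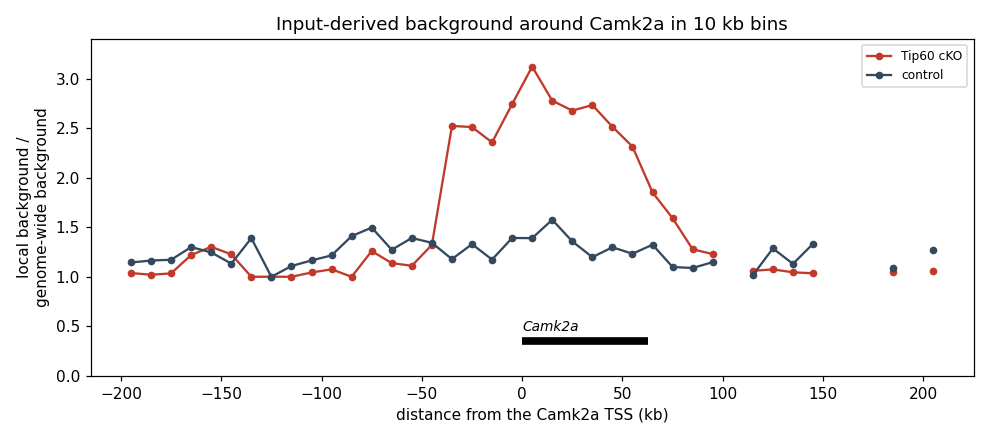
Input-derived local background in bins of 10 kb against the distance from the *Camk2a* TSS, as a multiple of the genome-wide background, averaged over the lists of each genotype. The black bar marks the gene, and gaps are bins without peaks. The *Tip60* cKO values are 1.76 to 2.28 times those of the controls between −40 and 60 kb.

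Other genes of calcium/calmodulin signalling were compared in the same fits. Of 18 listed genes, 14 had a TSS peak in all 10 lists. TSS coverage was lower in *Tip60* cKO mice in 16 and higher in 2, with a median of −5.14 points beside −4.01 over all genes, and limma called none of them, as against 1.53% lower and 0.0369% higher among all genes. An unadjusted p below 0.05 was found for 5 of the 18 and for 23.2% of all genes. In rank score 11 were lower and 7 higher, with a median of −1.43 beside −0.69 over all genes, and in body coverage 12 of 15 were lower. None was called in either. In rank score 2 of the 18 had an unadjusted p below 0.05, as did 11.8% of all genes, and in body coverage 1 of 15, as did 15.7%. The largest differences in TSS coverage were at *Ppp3ca*, the catalytic subunit of the calcium-activated phosphatase calcineurin, with 71.5 ± 7.86% against 90.0 ± 6.64% (−18.5 points, adjusted p of 0.0550 by limma), at the calmodulin gene *Calm3*, with 35.8 ± 11.4% against 54.1 ± 5.21% (−18.3 points, adjusted p of 0.0744), and at *Pnck*, a kinase of the CaMKI group, with 31.7 ± 4.34% against 48.6 ± 13.7% (−16.9 points, adjusted p of 0.120). In the same fit, coverage fell at the neuronal marker *Syt1* (−22.1 points, adjusted p of 0.0315 by limma) and at the astrocyte marker *Gfap* (−15.0 points, adjusted p of 0.0287), which had a TSS peak in 4 of 5 *Tip60* cKO and in all control lists. Neither was called in rank score (adjusted p of 0.314 and 0.604 by limma), and in TSS coverage limma called 0 genes with the replicate number as a block and 0 within either lane alone. The other 4 neuronal markers with a TSS peak in all lists and *Mbp* were not called, namely *Rbfox3* (−3.39 points), *Snap25* (−6.71), *Slc17a7* (−10.9), *Neurod2* (−9.32) and *Mbp* (−8.20), with adjusted p-values by limma from 0.319 to 0.761.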

How the data were processed

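H4K12ac ChIP-Seq libraries of 10 mice were used. The authors aligned the reads to mm10 (STAR), dropped PCR duplicates (samtools) and ran MACS 2.1.0.20140616 on every library at q < 0.1 against 1 pooled input per genotype. The deposited lists give the pileup, a coverage signal, the fold enrichment, a ratio of pileup to local background with 1 added to both, and −log10 p- and q-values. Reads were not used here. Strain and sex entered no comparison.

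TSSs and genes were taken from GENCODE M21 on GRCm38 (mm10). Body coverage was computed for genes longer than 4 kb. Rank score and coverages were compared with limma 3.58.1 in R 4.3.3 over genes with a peak in at least 2 lists. *Camk2a* is described without a test, since it was singled out by a background computed from the same values (Python 3.11.15, numpy 2.4.6). The limma step was tested on simulated data, and the outcome of that step is not reported here. Local background is (pileup + 1) / fold enrichment − 1. All members are named. From the pathway list, genes called by limma and the 3 largest differences in TSS coverage are named, and around *Camk2a* genes with a TSS within 200 kb. Members and lists were chosen with earlier results of these data known. Separate mice are the replicates. Depth differed between libraries, and peak lists hold no counts, so no counting error is given. The replicate numbers do not pair animals. The alternatives were a stricter q-value, the same number of peaks, pileup ranks, other windows, start sites and filters, another prior, a replicate block, the lanes (taken from the names of the deposited lists), and each library left out.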

Additional observations from a re-analysis of the deposited data

Results flagged for a closer look

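Dixon's test at the 95% level was applied in each genotype to the rank score, TSS coverage and body coverage of the family, in 56 groups of 5 mice, of which chance flags about 1 in 20. It singled out 2 values. *Camk2g* had no TSS peak in *Tip60* cKO mouse 5 and therefore a rank score of 0, whereas the other 4 *Tip60* cKO mice had 74.5 to 87.6. The *Camk2b* TSS coverage of control mouse 4 was 64.9%, whereas the other 4 controls had 90.3 to 97.4%. These mice had the fewest tags of their genotype, 22864189 and 27418740, and the part of depth in these values was not tested.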

How the results depend on the processing

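Peak lists limit these results, because peaks grow in number and width with depth and 5 mice per genotype leave wide errors. Of 577 alternative values of the 28 comparisons of family members, 540 kept direction and side of the threshold. The tally includes *Camk2a*, for which no test is read. With the replicate block or within either lane alone, limma called 0 of all genes in both coverages. Nothing is read from members that stayed uncalled there. Among the 577 values, *Camkk1* TSS coverage without *Tip60* cKO mouse 1 was alone in becoming significant, in a fit that called 1388 genes. The *Camkk1* difference lay between −25.7 and −18.4 over the libraries left out. Over these alternatives the differences of *Camk2a* ranged from 4.02 to 10.1 in rank score and from 1.35 to 19.3 points in TSS coverage. In body coverage they ranged from 14.2 to 22.8 points. These values are described only, since the raised background of *Camk2a* enters them.

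In 36 cases, none of them significant, the direction reversed, and the cause was not tested. With the same number of peaks the difference was −3.14 points in *Camk2d* TSS coverage, and in body coverage 3.47 at *Camk2b*, 0.0102 at *Camk2d*, 0.164 at *Camk2g* and 0.0407 at *Camk4*. At q < 0.01 body coverage differed by 0.727 at *Camk2b* and 0.0185 at *Camk2d*. In 1 kb windows TSS coverage differed by 8.37 at *Camk1* and −0.670 at *Camk2d*. Ranked by pileup, the rank score differed by −0.0254 at *Camk2b* and 0.706 at *Camkk2*. In lane 7 alone the values were −0.545 for the *Camk2d* rank score and, for body coverage, 1.02 at *Camk1d*, 4.64 at *Camk2b* and 0.00860 at *Camk2d*. In lane 8 alone they were −5.09 for *Camk2d* TSS coverage and, for the rank score, −1.53 at *Camk1*, 1.41 at *Camk1d* and −0.614 at *Camk2b*. When single libraries were left out, TSS coverage ranged from −1.50 to 3.06 at *Camk2d* and from −9.94 to 1.11 at *Camkv*, the rank score from −2.25 to 0.460 at *Camk1d* and from −1.94 to 1.73 at *Camkk2*, and body coverage from −4.73 to 0.655 at *Camk1*, −1.63 to 0.316 at *Camk1d*, −4.31 to 4.66 at *Camk2b* and −0.0428 to 0.0290 at *Camk2d*.

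The number of genes called by limma was 51 in rank score, 86 with a trended robust prior, 232 in lane 7 alone and 931 in lane 8 alone. In TSS coverage it was 339, 734 with the same number of peaks, 653 with lane as covariate and 32 without a filter, where most variances are 0 and the fit is unreliable. In body coverage it was 45, 112 with the same number of peaks, 7 without a filter and 9 with a trended robust prior. Either lane alone gave 0 in both coverages. Leaving out single libraries gave 56 to 97 (rank score), 38 to 1388 (TSS coverage) and 0 to 252 (body coverage). The extremes of coverage were reached without *Tip60* cKO mice 1 and 5 and control mice 4 and 5.

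*Camk2a* minus its paralogs was 0.39 in fold enrichment and 1.32 in pileup within lane 7, and 0.27 and 0.92 within lane 8. In fold enrichment it was 0.24 with TSS peaks alone. Same-numbered mice deviated together in some pairs and apart in others, with correlations in TSS coverage from −0.151 to 0.135, so the numbers were not taken as pairs. With the replicate number as a block, limma called 35 genes in rank score and 0 in either coverage. For *Camk2a* minus its paralogs the paired differences, 0.34 in fold enrichment and 1.16 in pileup, equal the unpaired ones by construction, and an exact sign-flip test of 5 pairs cannot go below 0.0625, so the block adds nothing there.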
